A study of Rattus norvegicus with 10 samples.

Results

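Complexes II to V of the mitochondrial respiratory chain were described here from pancreatic islets of rats on a cafeteria diet and rats on standard chow. A list of 39 nuclear genes that encode their subunits and cytochrome c was given, with 4 genes for complex II, 9 for complex III, 1 for cytochrome c, 10 for complex IV and 15 for complex V. A gene entered through an array probeset annotated with its symbol alone, and the probeset with the highest mean over the 10 arrays was taken. This left 34 of the 14217 genes with such a probeset: 4 of complex II, 8 of complex III, 9 of complex IV and 13 of complex V. Uqcrb, Cycs, Cox7a2, Atp5mc1 and Atp5mc2 were left out because their probesets carry several gene symbols. The rule for members used no measured difference between the diets, although the set was proposed with earlier results of these data known.

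The rats were adult male Wistar animals, 7 weeks old, and the diets lasted 10 days. In the cafeteria group 66% of calories came from fat, and in the standard chow group 8%. Each group had 5 arrays of independent samples, and the labels do not say how many rats gave each sample. RNA of hand-picked islets, the clusters of hormone-secreting cells of the pancreas, was measured on a 1-colour Affymetrix rat array whose deposited values are linear MAS5 signals scaled to the same trimmed mean. In all 10 samples the title, the source name and the description agree on a diet and the diet characteristic names the other one. The groups follow the titles, and with the characteristic every direction below would turn.

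The respiratory chain oxidises fuel in the inner mitochondrial membrane and uses the released energy to make ATP. Complex II feeds electrons from succinate into the ubiquinone pool, complex III passes them to cytochrome c, complex IV hands them to oxygen, and complex V is the ATP synthase that runs on the resulting proton gradient. In islet beta cells, ATP made from glucose closes potassium channels in the plasma membrane, and the ensuing calcium entry triggers insulin release. Signals of different probesets were not set against each other, since each probeset has its own sensitivity.

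Most members lay slightly higher in the cafeteria group, and none passed the test. The log2 difference was positive for 31 of 34 members, with a median of 0.096 and a range from −0.18 to 0.42. Over all tested genes 48.7% of differences were positive, with a median of −0.0044. By limma with Benjamini-Hochberg adjustment, 0 of 34 members had an adjusted p under 0.05 (their adjusted p ran from 0.412 to 0.976), as did 0% of the 18625 tested probesets. At an unadjusted p under 0.05, 3 members were higher (Sdhc, Atp5me and Atp5po) and 0 were lower, against 5.51% of all tested probesets higher and 4.91% lower (10.4% in all). The groups overlapped for all 34 members, while they did not for 2.44% of all tested probesets. Without cafeteria replicate 5 they overlapped for all 34 as well, against 3.5% of tested probesets without overlap, 1.66% with every cafeteria array higher.

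A single array carried most of the median shift over the 34 members. Cafeteria replicate 5 had the highest signal of all 10 arrays for 27 of 34 members, against 16.4% of all tested probesets and 29.8% of those whose mean lay above the 90th percentile, named the brightest probesets below. Without it 22 of 34 differences were positive, with a median of 0.032, while 48% of all tested genes had a positive difference. Among the brightest probesets 49% were positive with all arrays and 45.3% without that array. Complex II was the exception in its counts: cafeteria replicate 5 was highest for 2 of its 4 genes, against 7 of 8 in complex III, 7 of 9 in complex IV and 11 of 13 in complex V. These are counts on few genes and were not tested against each other.

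The mean log2 signal of the members of each complex shows the same on every array. For complex III, cafeteria replicate 5 stood at 12.51, the other 4 cafeteria arrays at 12.11 to 12.24 and the standard arrays at 12.04 to 12.20. For complex IV, it stood at 12.70, against 12.35 to 12.51 on the other cafeteria arrays and 12.35 to 12.49 on standard ones. For complex V, it stood at 12.85, against 12.51 to 12.62 on the other cafeteria arrays and 12.38 to 12.59 on standard ones. In these 3 complexes the remaining cafeteria arrays lay within or just above the range of the standard arrays. Complex II had a different layout: cafeteria replicates 4 and 5 stood at 11.71 and 11.73, the other cafeteria arrays at 11.53 to 11.62 and the standard arrays at 11.44 to 11.56. Without cafeteria replicate 5 the difference of group means went from 0.115 to 0.089 in complex II and from 0.133 to 0.074 in complex V. In complexes III and IV it went from 0.092 to 0.024 and from 0.057 to 0.0015.

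**Figure D1:**
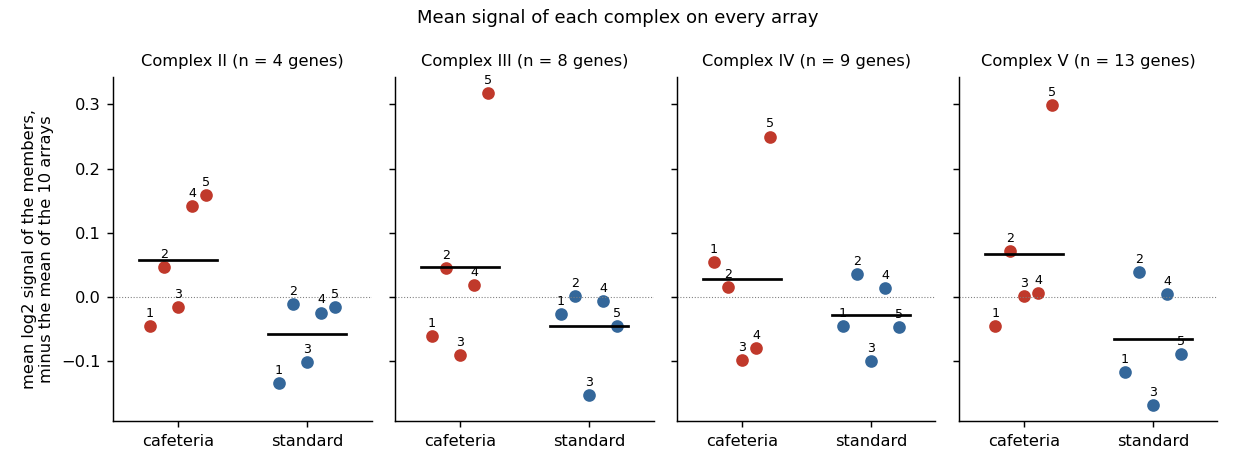
Mean log2 signal of the measured members of each complex on each array (vertical axis, log2 units), given as the deviation from the mean of the 10 arrays. Points are arrays with their replicate number, cafeteria left and standard right, and bars are group means. Cafeteria replicate 5 is the highest point in all 4 panels and stands alone in complexes III, IV and V.

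At the other end, standard replicate 3 had the lowest signal for 15 of 34 members, against 10.1% of all tested probesets and 16% of the brightest probesets. It lay below the mean of the other 4 standard arrays for 30 of 34 members, with a median log2 gap of −0.12. It did so for 1981 of the 3105 brightest probesets (median gap −0.047) and 8865 of all 18625 tested ones (median gap 0.014). The median signal of the brightest probesets was 2776 on that array. On cafeteria replicates 1 and 3 it was 2774 and 2771, and on the remaining arrays 2862 to 2909. Cafeteria replicate 5 lay above the mean of the other 4 cafeteria arrays for 32 of 34 members, with a median log2 gap of 0.30. It did so for 1782 of the brightest probesets and 8665 of all tested ones. The same gap was 0.041 over the brightest probesets and −0.026 over all tested probesets. The members below that mean were Uqcrc2 (−0.07) and Cox5a (−0.21).

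**Figure D2:**
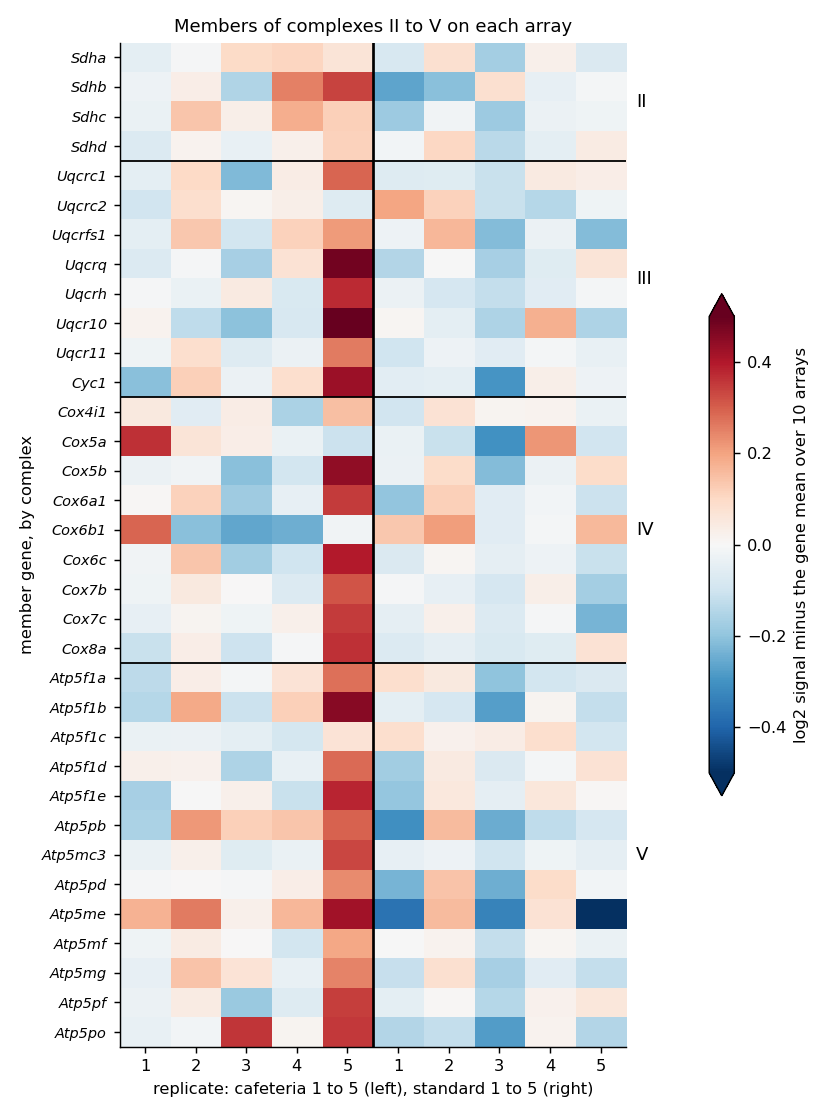
Log2 signal of each of the 34 members (rows, by complex) on each array (columns, cafeteria 1 to 5 left of the line, standard 1 to 5 right of it), as the deviation from the gene's mean over 10 arrays. Red is above and blue below that mean, in log2 units with the scale ending at 0.5. The column of cafeteria replicate 5 is red in most rows of complexes III to V, and Cox6b1 and Uqcrc2 run against their neighbours.

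Markers of the islets were present on every array. All 11 islet endocrine markers passed the filter on dim probesets, and their summed signal was 212497 to 270918 on cafeteria arrays and 181387 to 223536 on standard ones. It was highest in cafeteria replicate 5, at 270918. Of the 11, 9 were higher in the cafeteria group and 2 lower, with a difference of 0.12 in their mean log2 level. The 5 endothelial markers summed to 9511 to 11737 on cafeteria arrays, with 11670 in replicate 5, and to 9904 to 12132 on standard ones. Their mean log2 level was highest in cafeteria replicate 5, at 10.78, while the standard arrays lay between 10.20 and 10.60. Of the 5, 4 were higher in the cafeteria group and 1 lower, with a difference of 0.039 in that level. Of the 11 acinar markers, from the enzyme-secreting cells around islets, 9 were lower in the cafeteria group, with sums of 4252 to 22022 against 9444 to 22258. All 10 immune markers were lower there, with sums of 4787 to 19758 against 5018 to 19749. Summed signals were 2883 to 3773 on cafeteria arrays against 3055 to 3525 on standard ones for 4 duct markers, 7408 to 9684 against 6667 to 9751 for 7 fibroblast markers, 5225 to 6669 against 3955 to 5894 for 3 red blood cell markers and 839 to 1256 against 1128 to 1396 for 5 adipocyte markers, of which 1 passed the filter. In the order named, 2, 4, 2 and 1 of these markers were higher in the cafeteria group. No marker was at 0 on any array, which does not show that each was detected. In such bulk samples a difference in cell makeup and a difference in RNA per cell cannot be told apart, and the part of these lists in the results was not tested.

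An RNA quality measure also differed for GAPDH, and did not pass the test for beta-actin. The ratio of the 3 prime to the 5 prime GAPDH control probesets was 0.964 to 1.11 in cafeteria arrays and 1.00 to 1.26 in standard arrays, a log2 difference of −0.21 (exact two-sided permutation p = 0.0238, adjusted p = 0.0476 over the GAPDH and beta-actin ratios). This p exceeded the threshold without standard replicate 1, 3, 4 or 5 (up to 0.0635). Cafeteria replicate 5 had the highest ratio of its group. With the ratio as a covariate, complex II had 2 of 4 positive differences and a median of 0.046, while the medians of complexes III, IV and V were 0.18, 0.11 and 0.12.

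Complex V, the ATP synthase, held the members with the lowest p. It joins a catalytic head, made of the products of Atp5f1a to Atp5f1e, through a peripheral stalk (Atp5pb, Atp5pd, Atp5pf, Atp5po) to a membrane part with a ring of c subunits (Atp5mc3) and small accessory subunits (Atp5me, Atp5mf, Atp5mg). Of its 13 measured members 12 had a positive difference, with a median of 0.094, and 9 of 13 without cafeteria replicate 5, with a median of 0.037. At an unadjusted p under 0.05, 2 members were higher with all arrays and 1 without that array (Atp5me), when 5.2% of all tested probesets were higher and 9.03% passed in either direction.

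Atp5me encodes subunit e of the membrane part, which is known for its role where synthase dimers join. Its signal was 3604, 3831, 3254, 3584 and 4282 in cafeteria replicates 1 to 5, and 2472, 3564, 2529, 3358 and 2147 in standard replicates 1 to 5. The cafeteria arrays were high throughout, and standard replicates 2 and 4 lay within their range while the other 3 standard arrays lay below it. The means were 3710.9 ± 379.8 in the cafeteria group and 2814.1 ± 612.8 in the standard group (SD, n = 5 each), a log2 difference of 0.42 (SE 0.143, 95% confidence interval 0.10 to 0.73, limma adjusted p = 0.412). This was the largest difference among the 34 members. Without cafeteria replicate 5 it was 0.37 (0.03 to 0.70, limma adjusted p = 0.538), and it ranged from 0.33 to 0.51 with any 1 array left out.

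Atp5po encodes the stalk subunit that confers sensitivity to oligomycin. Its signal was 2491, 2532, 3275, 2584 and 3267 in the cafeteria arrays and 2309, 2351, 2106, 2590 and 2309 in the standard arrays. Cafeteria replicates 3 and 5 stood above all others, and the other 3 cafeteria arrays overlapped with standard replicate 4. The log2 difference was 0.27 (SE 0.105, interval 0.04 to 0.50, limma adjusted p = 0.439), and 0.21 without cafeteria replicate 3 and also without cafeteria replicate 5. Atp5pb, for the membrane-anchored stalk subunit, read 8993, 11678, 10893, 11043 and 12311 in the cafeteria arrays and 8105, 11216, 8450, 9192 and 9480 in the standard arrays. Standard replicate 2 lay above 3 of the cafeteria arrays, and cafeteria replicate 1 lay within the standard range. The difference was 0.24 (SE 0.112, interval −0.0034 to 0.49, limma adjusted p = 0.48), and 0.20 (−0.058 to 0.46) without cafeteria replicate 5.

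The second probesets of Atp5me and Atp5po were dim and did not enter the test: that of Atp5me read 67.35 to 115.71 on cafeteria arrays and 28.05 to 89.4 on standard ones. That of Atp5po read 9.49 to 92.87 on cafeteria arrays and 12.34 to 75.08 on standard ones.

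**Figure D3:**
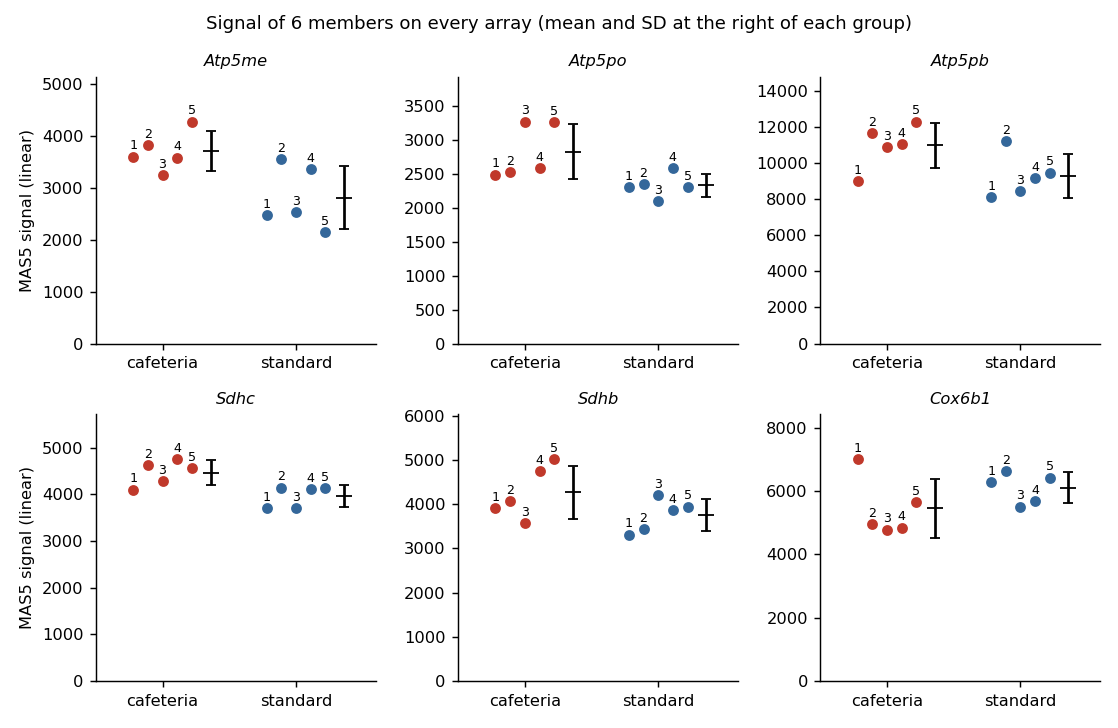
MAS5 signal (vertical axis, linear, from 0) of 6 members on each array, cafeteria left and standard right, with replicate numbers and, beside each group, its mean and SD (n = 5). In all 6 panels the groups overlap, and Cox6b1 is the one with a lower cafeteria mean (5452.5 against 6108.9).

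The other stalk subunits differed less, with Atp5pd at 0.10 and Atp5pf at 0.042. Atp5pf was at −0.039 without cafeteria replicate 5. In the catalytic head, Atp5f1b, whose product holds the sites of ATP formation, differed by 0.21, and by 0.12 without cafeteria replicate 5. Its partner Atp5f1a differed by 0.094, Atp5f1d by 0.056, Atp5f1e by 0.050 and the rotor subunit gene Atp5f1c by −0.052. Among the membrane subunits, Atp5mg differed by 0.15, the c subunit gene Atp5mc3 by 0.093 and Atp5mf by 0.050. Without cafeteria replicate 5 these were 0.11, 0.021 and 0.0074, Atp5pd was at 0.057, Atp5f1a at 0.037, Atp5f1d at −0.0076, Atp5f1e at −0.040 and Atp5f1c at −0.076. The SE of the 10 differences with all arrays ran from 0.069 to 0.12, and all of their 95% intervals held 0.

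The sequence before the start of the 3 synthase genes with the lowest p is shown so that the motifs in them can be read beside their values. RefSeq promoter windows of build GRCr8 hold 250 bases before and 50 after the start of a gene, and only the 250 bases before it are printed, 5′ to 3′ on the strand of the gene. Capitals mark matches to GCGCATGC, the core of the motif of NRF1 (nuclear respiratory factor), and to CCGGAAG, the core of the ETS family motif that GABP reads, on either strand (as GCATGCGC and CTTCCGG on the other). The windows lie at chr14:1464610-1464859 on the plus strand for Atp5me, chr11:44657484-44657733 on the minus strand for Atp5po and chr2:196123738-196123987 on the minus strand for Atp5pb.
Atp5me: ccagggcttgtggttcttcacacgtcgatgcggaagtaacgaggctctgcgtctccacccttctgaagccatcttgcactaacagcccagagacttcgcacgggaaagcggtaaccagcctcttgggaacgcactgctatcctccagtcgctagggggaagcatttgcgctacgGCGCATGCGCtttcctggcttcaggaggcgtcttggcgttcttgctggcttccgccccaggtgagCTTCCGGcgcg
Atp5po: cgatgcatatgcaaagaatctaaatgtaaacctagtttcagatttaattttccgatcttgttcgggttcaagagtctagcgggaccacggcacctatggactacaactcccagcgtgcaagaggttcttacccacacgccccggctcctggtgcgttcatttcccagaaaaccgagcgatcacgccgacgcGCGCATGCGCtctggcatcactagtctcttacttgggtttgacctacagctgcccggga
Atp5pb: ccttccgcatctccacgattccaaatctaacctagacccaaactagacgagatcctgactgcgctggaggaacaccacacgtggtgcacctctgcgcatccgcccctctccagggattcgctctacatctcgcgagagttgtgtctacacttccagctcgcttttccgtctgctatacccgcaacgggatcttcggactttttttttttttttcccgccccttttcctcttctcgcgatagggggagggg

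In Atp5me and Atp5po the NRF1 letters matched on both strands at overlapping positions, first at base −76 and base −59 before the start. Atp5me also held the ETS letters at −11 on the minus strand, and Atp5pb held neither. RefSeq windows were matched for 29 of the 34 members, all but Uqcr11, Cyc1, Cox6a1, Cox6c and Atp5pd. Of the 29 matched, 5 (17.2%) held the NRF1 letters: Atp5me, Atp5po, Atp5mg, Sdhb and Uqcrc1. The share was 2.47% of all 33469 windows and 5.33% of the 8605 windows of genes tested on the array. The ETS letters were in 12 of 29 members (41.4%), against 8.75% of all windows and 18.5% of those of tested genes. AAGATGGCG, the core of the YY1 motif, was in 3 (10.3%), against 1.73% and 4.07%, and TATAAA, the TATA box, in 2 (6.90%), against 14.2% and 6.64%. These are matches of letters in a fixed window and say nothing about binding in these islets.

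Complex II, succinate dehydrogenase, is also an enzyme of the citric acid cycle. All 4 genes had a positive difference, with a median of 0.13, and 3 of 4 without cafeteria replicate 5, with a median of 0.098. Sdhc, which encodes a membrane anchor of the complex, read 4102, 4629, 4288, 4763 and 4570 in the cafeteria arrays and 3706, 4148, 3703, 4113 and 4137 in the standard arrays. Cafeteria replicate 1 was the one cafeteria array within the range of the standard arrays. The log2 difference was 0.17 (SE 0.076, interval 0.01 to 0.34, limma adjusted p = 0.467), and 0.17 without cafeteria replicate 5.

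Sdhb, for the iron-sulphur subunit, read 3903, 4070, 3577, 4743 and 5023 in the cafeteria arrays and 3310, 3436, 4207, 3863 and 3946 in the standard arrays. Cafeteria replicates 4 and 5 were high, cafeteria replicate 3 was the lowest of its group, standard replicate 3 was the highest of its own, and the difference was 0.18 (SE 0.111, limma adjusted p = 0.571), and 0.12 without cafeteria replicate 5. Sdha, for the flavoprotein that oxidises succinate, read 1371, 1414, 1519, 1532 and 1484 in the cafeteria arrays and 1342, 1503, 1261, 1443 and 1350 in the standard arrays. The groups overlapped widely, with a difference of 0.086 (SE 0.075, limma adjusted p = 0.69) and of 0.081 without cafeteria replicate 5. Sdhd, the other anchor, differed by 0.021 (−0.0053 without cafeteria replicate 5), and its second probeset by −0.098 (SE 0.098), so the probesets disagreed in sign within their error.

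Complex III, the cytochrome bc1 complex, had 7 of 8 positive differences with a median of 0.11, and 5 of 8 with a median of 0.029 without cafeteria replicate 5. Cyc1, the cytochrome that passes electrons on to cytochrome c, read 2768, 3481, 3144, 3396 and 4315 in the cafeteria arrays and 3090, 3101, 2614, 3277 and 3149 in the standard arrays. Cafeteria replicate 5 was the high array and standard replicate 3 the low one, while cafeteria replicate 1 lay below 4 standard arrays. The difference was 0.16 (SE 0.117, limma adjusted p = 0.642), and 0.068 without cafeteria replicate 5.

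Uqcrfs1, for the Rieske iron-sulphur protein, read 3911, 4448, 3798, 4387 and 4702 in the cafeteria arrays and 3979, 4540, 3486, 3968 and 3487 in the standard arrays. Standard replicates 3 and 5 were low and the rest overlapped, with a difference of 0.13 (SE 0.098, limma adjusted p = 0.647) and of 0.091 without cafeteria replicate 5. Uqcrh, for the hinge protein, read 7418, 7278, 7692, 7066 and 9660 in the cafeteria arrays and 7297, 7027, 6870, 7159 and 7395 in the standard arrays. Its difference of 0.12 (SE 0.092, limma adjusted p = 0.648) was 0.042 without cafeteria replicate 5. The small subunit genes Uqcrq, Uqcr11 and Uqcr10 differed by 0.12, 0.092 and 0.069, and without that array by 0.020, 0.038 and −0.063. The core protein genes Uqcrc1 and Uqcrc2 differed by 0.063 and −0.016, and by −0.0013 and −0.0017 without it. The second probeset of Uqcrc2 differed by −0.092 (SE 0.135), and by 0.0062 without cafeteria replicate 5, which was its lowest array at 809.

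Complex IV, cytochrome c oxidase, takes its catalytic core from mitochondrial DNA, and the members here are its nuclear subunits. It had 8 of 9 positive differences with a median of 0.098. Without cafeteria replicate 5, 5 of 9 were positive and the median was 0.011, the lowest of the 4 complexes. The member with the lowest p went the other way: Cox6b1, for a subunit on the side facing the intermembrane space, read 7017, 4964, 4783, 4842 and 5656 in the cafeteria arrays and 6292, 6633, 5509, 5688 and 6423 in the standard arrays. Cafeteria replicate 1 was the highest of all arrays, and cafeteria replicates 2, 3 and 4 lay below every standard array. The difference was −0.18 (SE 0.115, interval −0.43 to 0.08, limma adjusted p = 0.59), and −0.19 without cafeteria replicate 5. With 1 array left out it ran from −0.27 (without cafeteria replicate 1) to −0.13 (without cafeteria replicate 3).

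Cox7c, for a small membrane subunit, read 6532, 6786, 6617, 6842 and 8575 in the cafeteria arrays and 6507, 6848, 6405, 6697 and 5712 in the standard arrays. Cox7b, for another, read 13456, 14109, 13647, 12996 and 16969 in the cafeteria arrays and 13589, 13241, 12866, 13931 and 12111 in the standard arrays. In both, cafeteria replicate 5 was the high array, standard replicate 5 was the low one and the other 8 lay together. The differences were 0.13 (SE 0.094, limma adjusted p = 0.624) and 0.11 (SE 0.088, limma adjusted p = 0.666), and 0.060 and 0.045 without cafeteria replicate 5. Cox5a differed by 0.13, Cox6a1 by 0.10, Cox6c by 0.098, Cox8a by 0.072, Cox5b by 0.036 and Cox4i1 by 0.0093. Without cafeteria replicate 5, Cox5a stood at 0.17, Cox6a1 at 0.027, Cox6c at 0.011, Cox8a at −0.011, Cox5b at −0.069 and Cox4i1 at −0.028. Cox5a was read from a dim probeset, at 197 to 279 on cafeteria arrays and 170 to 252 on standard ones; cafeteria replicate 5 was the lowest of its group there.

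**Figure D4:**
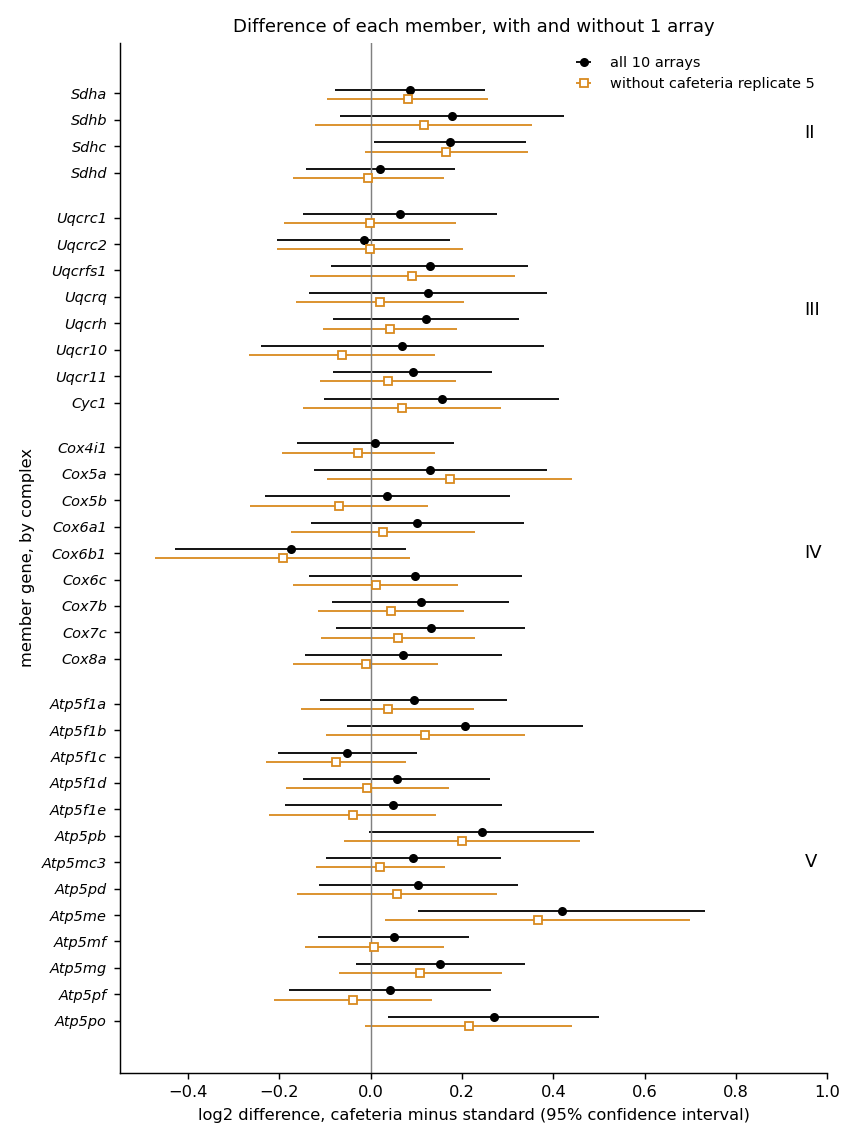
Log2 difference of each member, cafeteria minus standard, with its 95% confidence interval from limma (horizontal axis), by complex. Black circles use all 10 arrays and open squares leave out cafeteria replicate 5. With all arrays 31 of 34 circles lie right of 0, and without that array 22 of 34 squares do; the interval of Atp5me lies above 0 in both.

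Leaving out any other single array moved the medians less than leaving out cafeteria replicate 5. With any array but that one left out, the medians ran from 0.055 (complex V, without standard replicate 3) to 0.16 (complex II, without cafeteria replicate 1). Without standard replicate 3, 1 member had an unadjusted p under 0.05, against 6 without cafeteria replicate 1. Of the 18625 tested probesets, 1795 and 2006 did so in turn.

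**Figure D5:**
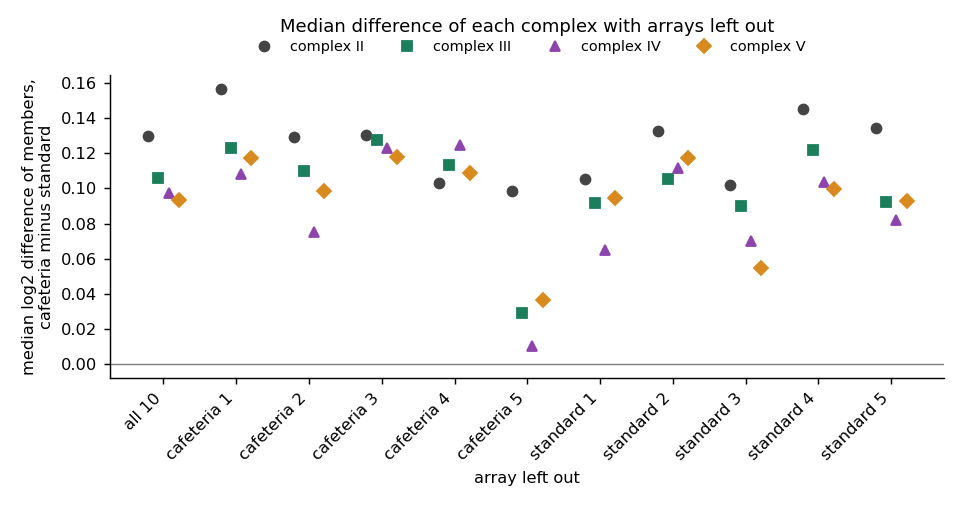
Median log2 difference of the members of each complex, cafeteria minus standard (vertical axis), with all 10 arrays and with each array left out in turn (horizontal axis). Without cafeteria replicate 5 complexes III, IV and V drop to 0.029, 0.011 and 0.037, while complex II is at 0.098.

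Other genes of the pathway were read from lists of its remaining parts. For complex I, which passes electrons from NADH into the chain, 27 of 34 measured genes had a positive difference, with a median of 0.063, and 21 of 34 with a median of 0.016 without cafeteria replicate 5. That array was highest for 23 of the 34. Its members with the lowest p were Ndufs3 (0.24, SE 0.095), Ndufs4 (0.17, SE 0.095) and Ndufa11 (0.19, SE 0.120), all subunits of the complex, and Ndufa11 was at 0.13 without cafeteria replicate 5.

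Of 15 measured genes of the citric acid cycle and pyruvate dehydrogenase, 11 had a positive difference, with a median of 0.076 that was 0.055 without cafeteria replicate 5. Those with the lowest p were Suclg2, of succinyl-CoA synthetase (−0.23, SE 0.071), and Dlst and Ogdh, of the oxoglutarate dehydrogenase complex (0.27, SE 0.110, and 0.25, SE 0.121). Ogdh was at 0.16 without cafeteria replicate 5. Suclg2 read 2518, 2752, 2561, 2629 and 2828 in the cafeteria arrays and 3231, 3041, 3014, 3335 and 2954 in the standard arrays, and all cafeteria arrays lay below all standard arrays, as for 1.45% of all tested probesets. Its limma adjusted p was 0.407.

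Of the factors that assemble complexes II to V, 12 of 28 tested had a positive difference, with a median of −0.020; the difference from the subunits was not tested. Cox18 (0.30, SE 0.093) and Surf1 (0.30, SE 0.098), which act in the assembly of complex IV, and Cox15 (−0.20, SE 0.077), which makes its haem, had the lowest p there. Surf1 read 1575 to 2042 on cafeteria arrays and 1315 to 1566 on standard ones, so that its groups did not overlap. Of the 28 factors, 2 had all cafeteria arrays above all standard arrays, Surf1 and Sdhaf4, against 0.988% of all tested probesets. This is a count on few genes and was not tested. Sdhaf4 was named after its values were seen. It read 529.69 to 582.99 on cafeteria arrays and 496.25 to 528.95 on standard ones. Its log2 difference was 0.077 (SE 0.065, limma adjusted p = 0.677). Tissue isoforms and associated proteins had 3 of 9 positive differences with a median of −0.014, and 3 of 9 with a median of −0.026 without cafeteria replicate 5. The lowest p were those of Dmac2l (−0.38, SE 0.178), Atp5if1 (0.11, SE 0.091), the inhibitor of the synthase, and Atp5mk (0.090, SE 0.117). Without that array Atp5if1 was at 0.053 and Atp5mk at −0.017. Carriers and pores of the mitochondrial membranes had 6 of 10 with a median of 0.031, which became 4 of 10 and −0.0072 without cafeteria replicate 5. The lowest p among them were those of Vdac1 (−0.20, SE 0.098), Slc25a20 (0.15, SE 0.094) and the ADP/ATP carrier gene Slc25a5 (0.12, SE 0.081).

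Regulators of mitochondrial gene expression had 8 of 18 positive differences, with a median of −0.012. Leaving out cafeteria replicate 5 gave 10 of 18 and a median of 0.046. Esrra, for the nuclear receptor ERR alpha, which is known to act on respiratory chain genes, was at 0.63 (SE 0.215, limma adjusted p = 0.412). Its probeset was dim. It read 169, 224, 160, 161 and 197 in the cafeteria arrays and 87.3, 109.6, 69.5, 131.0 and 195.5 in the standard arrays, so that standard replicate 5 alone lay within the cafeteria range. Yy1 was at −0.36 (SE 0.128), read from the 1 of its 4 probesets with the highest mean. That probeset gave 986 to 1587 on cafeteria arrays and 1692 to 1924 on standard ones. The groups did not overlap, as for 1.45% of all tested probesets in that direction. Cafeteria replicate 5 read 986 and the other 4 cafeteria arrays 1521 to 1587, and without it the difference was −0.23. Mtif2, for a mitochondrial translation factor, was at −0.28 (SE 0.130). In these 6 lists together 0 of 114 tested genes passed limma's adjusted threshold. At an unadjusted p under 0.05, 6 were higher (5.26%) and 3 lower (2.63%), against 5.51% and 4.91% of all tested probesets. All cafeteria arrays lay above all standard arrays for 2 of the 114 (1.75%) and below them for 2 (1.75%). Over all tested probesets these shares were 0.988% and 1.45%.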

How the data were processed

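RNA of islets from 5 cafeteria and 5 standard diet samples was measured on 1-colour Affymetrix arrays. The deposited intensity values are linear MAS5 signals, per the submitters' processing notes; the version is not given in the sources used here. Trimmed means were 500.143 to 500.163 on all arrays (2% trimmed), array medians 150.85 to 173.21, and the number of arrays limits the precision. Values were taken as log2(value + 14.15), the 10th percentile of all values, so fold changes of dim probesets are understated. Of 31042 non-control probesets, 18625 whose mean over the arrays exceeded the 40th percentile on the log2 scale were tested with limma 3.58.1 (R 4.3.3), cafeteria minus standard, with Benjamini-Hochberg adjustment over all of them and a threshold of 0.05. All 34 members passed the filter. Of the non-control probesets 20826 carry 1 symbol, 436 several and 9780 none.

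The members and lists were chosen with earlier results of these data known. All members are named, with every array for the 3 of lowest p in each complex, and up to 3 genes of lowest p in each other list. Genes of the other lists were also read from their probeset with the highest mean, and their further probesets are not given. Samples were grouped by title. Replicate numbers were not used as pairs. Alternatives covered the pseudocount, filter, normalization, variance model, array weights, replicate block, covariates, probesets and each array left out. Promoters came from RefSeq (GRCr8). The labels call the samples biological replicates.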

Additional observations from a re-analysis of the deposited data

Results flagged for a closer look

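In a group of 5 arrays, a value was picked out when its gap to the nearest array exceeded Dixon's 95% critical share of the range of the group, which chance gives in about 1 of 20 groups. Of 78 sets of 5 values, 10 were picked out, and 8 of the 10 were cafeteria replicate 5 standing above its group. That array was the highest of all 10 arrays for 16.4% of all tested probesets and 29.8% of the brightest. Being highest is a looser measure than the rule used here. The share of all tested probesets that the rule would pick out is not given here. Chance would give 3.9 sets if they were independent, but members read on the same arrays are not. Whether 10 exceeds chance was therefore not tested.

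In complex III, cafeteria replicate 5 read 9660.4 for Uqcrh (other cafeteria arrays 7065.5 to 7692.28) and 8187.59 for Uqcr10 (4804.17 to 5612.73). Cyc1 read 2614.39 in standard replicate 3, below 3090.44 to 3276.68 in the other standard arrays. In complex IV, cafeteria replicate 5 read 7564.24 for Cox5b (4810.62 to 5493.25), 16969.4 for Cox7b (12995.6 to 14109.3), 8574.77 for Cox7c (6531.76 to 6841.58) and 13900.7 for Cox8a (9982.28 to 11014.2). Cox8a also read 11333.1 in standard replicate 5, above 10229.8 to 10440.1 in the other standard arrays. In complex V, cafeteria replicate 5 read 10595 for Atp5mc3 (8061.22 to 8547.97) and 6693.87 for Atp5pd (5657.86 to 5803.87). No member of complex II was picked out.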

How the results depend on the processing

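In every setting run 0 of the members tested passed the adjusted threshold. All 34 were tested except Cox5a at the 70th percentile filter (33 tested), Cox5a and Sdha at the 90th (32) and Atp5f1c without probesets prone to cross-hybridisation (33). The lowest adjusted p of a member was 0.162, for Atp5me when probesets below the 90th percentile were left out, which leaves fewer to adjust over. The 3 members at an unadjusted p under 0.05 became 1 with median centring, 5 with a trended and robust variance and 0 with the GAPDH ratio as covariate, and 1 to 6 with an array left out. Of all 18625 tested probesets, 1895, 2106 and 1913 did so in those 3 settings, against 1941 in the main one. With an array left out the count over all of them was 1540 to 2006. With that covariate complex II had a median of 0.0463 and 2 positive differences. The number positive in complex IV was 5 to 8 with an array left out. Medians with an array left out ran from 0.098 to 0.157 in complex II, 0.029 to 0.127 in complex III, 0.011 to 0.125 in complex IV and 0.037 to 0.118 in complex V, each lowest without cafeteria replicate 5. With all arrays, quantile normalization gave a median of 0.054 in complex IV, median centring 0.069, 0.060 and 0.056 in complexes III, IV and V, and array weights 0.069 and 0.051 in complexes III and IV, where the medians reported are 0.11, 0.098 and 0.094. The GAPDH ratio difference ran from −0.26 to −0.17 with an array left out. The replicate block gave 0 members past the adjusted threshold and 3 at an unadjusted p under 0.05, as without it, and changed no other call. Over all probesets it gave 2349 at an unadjusted p under 0.05, against 1941 without it. Deviations of same-numbered arrays correlated at 0.0033, 0.30, 0.25, −0.0017 and 0.14, above 0.1 in 3 of 5 pairs, and 5 of 10 arrays correlated best with their own number. The labels state no pairing, so the numbers were not taken as pairs. Whether same-numbered arrays share a batch or another structure was not tested.

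Small differences turned sign. Quantile normalization gave −0.033 for Cox4i1, and median centring −0.017 for Sdhd, −0.028 for Cox4i1 and −0.0011 for Cox5b. Array weights gave 0.0045 for Uqcrc2, −0.024 for Uqcr10, −0.023 for Cox4i1, −0.011 for Cox5b and −0.0062 for Atp5f1e. The GAPDH covariate gave −0.0057 for Sdha, −0.024 for Sdhd and 0.012 for Atp5f1c, the acinar covariate −0.0094 for Cox4i1, and the mean of probesets −0.039 for Sdhd. With an array left out the range held 0 for Uqcrc2 (−0.053 to 0.032), Cox4i1 (−0.028 to 0.050), Sdhd (−0.011 to 0.049), Cox5b (−0.069 to 0.093), Uqcrc1 (−0.0013 to 0.126), Uqcr10 (−0.063 to 0.129), Cox8a (−0.011 to 0.108), Atp5f1d (−0.0076 to 0.102), Atp5f1e (−0.040 to 0.098) and Atp5pf (−0.039 to 0.094). The cause was not tested. The diet labels conflict, the rats behind each sample are not counted in the labels, and 5 arrays a group limit the precision: with a median SE of 0.098, differences of the size of most members could not be told from 0.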
